A study of Danio rerio with 12 samples.

Results

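The 4 pools of zebrafish embryos exposed to 1 mM sodium arsenite were compared with the 4 pools exposed to 0.1 mM, site by site and over stretches of neighbouring sites. These 8 libraries, of 12 in the series, were chosen by their titles. The comparison asks whether DNA methylation differed between a lower and a higher dose of the same toxicant. All embryos were wild-type Danio rerio bred in the submitters' laboratory from commercially imported fish. Every exposed pool held 20 whole embryos, received arsenite for 72 h and was collected at 72 h post fertilisation. The 4 control pools, with no arsenite, serve only for reference. A pool of whole embryos mixes all tissues, so a change in the methylation of 1 cell type and a change in the share of that cell type cannot be told apart. The labels do not say whether replicate pools came from separate spawns, so p-values measure the spread between these pools.

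Cytosine methylation in vertebrates is found mainly at CpG dinucleotides and is copied at cell division by maintenance methyltransferases. In fish, as in mammals, most of the genome is methylated, while CpG-rich promoters are largely free of methylation. Arsenite is a soluble, trivalent form of inorganic arsenic, and its biotransformation adds methyl groups taken from S-adenosylmethionine, the donor that DNA methyltransferases also use.

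The assay was DREAM, digital restriction enzyme analysis of methylation. SmaI, which methylation blocks, cut unmethylated CCCGGG sites, and XmaI then cut those that remained. A fragment end starting with GGG therefore counts as unmethylated and one starting with CCGGG as methylated, and the level of a site is the methylated share of its reads, in percent. Differences are 1 mM minus 0.1 mM throughout, in percentage points unless stated as log2. Positions are those of the danRer7 build as the files give them. The genes around the sites are not analysed here, because no danRer7 annotation was used.

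Libraries held 1485862 to 1822127 reads at 0.1 mM and 1491247 to 1700854 at 1 mM. Of 64466 listed sites on 25 chromosomes, 2345 (3.64%) reached 20 reads in every one of the 8, with a median of 354 reads per library. Levels were strongly divided: 1552 sites were over 90% methylated by the mean of the 8 libraries, 241 were under 10%, 219 of these under 1%, and 552 lay between. The median site was at 95.6%. Runs of sites at most 1000 bp apart gave 691 stretches, 638 of them of 2 sites, with a median length of 237 bp and a median of 1193 summed reads. Where a fragment spans neighbouring sites, its reads are counted at each, so summed reads are then not all separate fragments. The stretches held 1462 of the analysed sites. The spiked standard with the lowest level, which is no embryo DNA, read 2.57%, 0.823%, 1.78% and 0.497% methylated in the 1 mM libraries and 0.285 to 0.496% in the 0.1 mM libraries, so all 4 at the higher dose lay above all 4 at the lower. The difference was 0.983 points (exact permutation p = 0.0286, the smallest possible). The gap between the doses was narrow, with library 4 at 1 mM at 0.497% against up to 0.496% at 0.1 mM. Controls ran from 0.215 to 0.920%, and control library 4 lay above libraries 2 and 4 at 1 mM. These values sum both sites of that standard. Over the 18 sites of the standards taken singly, 2 reached that p, and the smallest adjusted exact permutation p was 0.257. One was a site of the lowest standard, the other a site of another standard, at 39.1% at 0.1 mM and 39.7% at 1 mM. At the remaining site of the lowest standard the doses overlapped (exact permutation p = 0.114). Whether the difference in the lowest standard had a part in the levels of the embryo sites was not tested. At embryo sites under 10% the difference was 0.0541 points with all libraries and 0.0339 without libraries 1 and 3 at 1 mM. Libraries 2 and 3 at 1 mM had more of their reads, 11.6% and 13.1%, at sites whose nearest listed CCCGGG was more than 1000 bp away, against 7.36 to 8.91% in the other 6. Among the controls this share ran from 7.47 to 10.7%.

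Mean methylation was close at the 2 doses. Over all 2345 sites the libraries at 0.1 mM averaged 80.1%, 79.9%, 80.5% and 80.1%, and those at 1 mM averaged 80.3%, 80.2%, 80.1% and 80.6%, so the groups overlapped. The means were 80.2% ± 0.252 and 80.3% ± 0.195 (SD, n = 4 each), a difference of 0.142 points (95% interval -0.387 to 0.657, exact two-sided permutation p = 0.343 over the 70 splits of 4 against 4 libraries). The smallest p such a design allows is 0.0286. Control pools averaged 80.2% ± 0.279.

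Unmethylated sites also had similar means. At the 241 sites under 10% the 0.1 mM libraries averaged 0.489% ± 0.0622 and the 1 mM libraries 0.543% ± 0.0393 (SD over 4 libraries), a difference of 0.0541 points with an interval of -0.056 to 0.149 (exact permutation p = 0.2, adjusted over 5 classes 0.5). The 552 intermediate sites averaged 67.5% ± 0.76 and 68.0% ± 0.597, a difference of 0.491 points with an interval of -1.07 to 2.10 (exact permutation p = 0.343, adjusted 0.571). At sites over 90% the difference was 0.0308 points with an interval of -0.296 to 0.255 (exact permutation p = 0.743, adjusted 0.929). Sites inside stretches differed by 0.232 points (exact permutation p = 0.2, adjusted 0.5) and sites outside them by -0.00767 (exact permutation p = 1, adjusted 1). In each class the ranges of the doses overlapped.

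**Figure D1:**
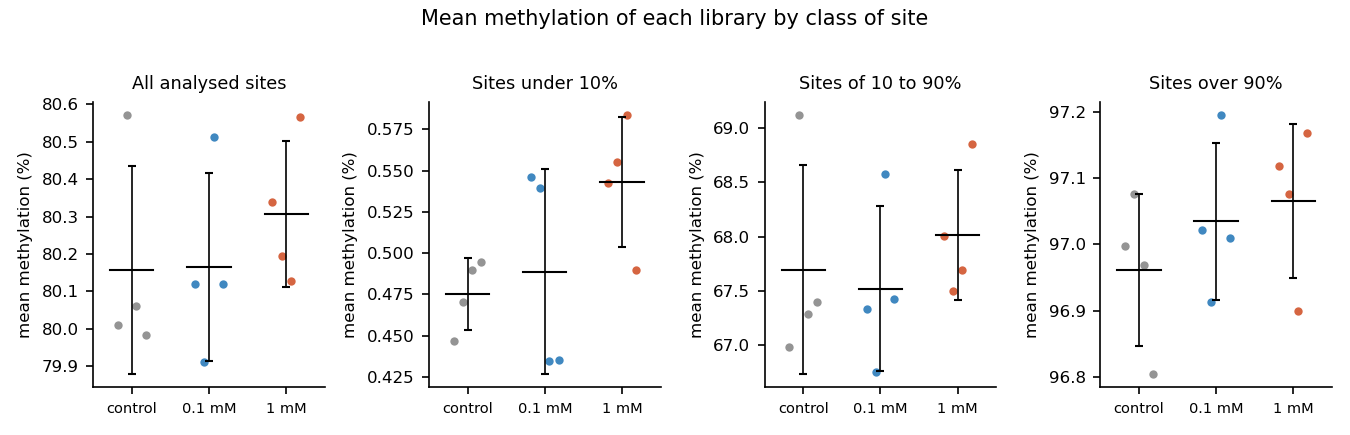
Mean methylation in percent (vertical axes, each with its own scale and not from 0) of each library over all sites and over sites under 10%, of 10 to 90% and over 90%, for control, 0.1 mM and 1 mM. Points are libraries, horizontal lines are group means and bars are SD (n = 4); the ranges of 0.1 mM and 1 mM overlap in all 4 panels, and over all sites they run from 79.9 to 80.5% and from 80.1 to 80.6%.

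Intermediate sites leaned towards the higher dose, and so did sites under 10%. The mean was higher at 1 mM at 336 of 552 intermediate sites (60.9%) and at 134 of 194 intermediate stretches (69.1%), against 54.5% of all tested sites and 58.9% of all tested stretches. Under 10% it was higher at 1 mM at 131 of 213 tested sites and 57 of 93 stretches. Over 90% it was higher at 763 of 1491 sites and 212 of 397 stretches. The lean was thus not particular to intermediate sites. Library 4 at 1 mM lay above the median of the 8 libraries at 71.6% of intermediate stretches, and libraries 1, 2 and 3 at 1 mM at 59.8%, 51.0% and 46.4%. Among the 0.1 mM libraries the shares were 36.6%, 32.5%, 59.8% and 42.3%. At stretches, library 3 at 0.1 mM lay as high as the second highest at 1 mM, and the other 3 libraries at 0.1 mM lay below every library at 1 mM. At the 552 sites the doses mixed more. The shares there were 41.1%, 36.6%, 58.9% and 46.0% at 0.1 mM and 55.3%, 45.8%, 48.6% and 67.2% at 1 mM. Library 4 at 0.1 mM thus lay above library 2 at 1 mM, and library 3 at 0.1 mM above libraries 1, 2 and 3 at 1 mM. Sites within a library share its depth and preparation. The means over intermediate sites and over sites under 10%, which treat the library as the unit, did not pass their tests.

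No site and no stretch was called between the doses. Each of the 2256 sites with reads of both kinds was tested with edgeR's quasi-likelihood test on methylated and unmethylated reads, and 0 sites passed a Benjamini-Hochberg adjusted p of 0.05; the smallest was 0.272. Limma on log2 odds called 0 as well. At an unadjusted p under 0.05, edgeR had 121 sites (5.36%), 80 higher (3.55%) and 41 lower (1.82%) at 1 mM, and limma 125 (5.54%). edgeR's 121 were spread unevenly, with the largest share at sites under 10%. They comprised 26 of the 213 tested sites under 10%, 21 of the 552 intermediate ones and 74 of the 1491 over 90%. At 55 sites (2.44%) all 4 libraries of one dose lay above all 4 of the other, 38 (1.68%) higher and 17 (0.754%) lower at 1 mM. Leaving out single libraries gave 0 to 5 calls: 5 without library 4 at 1 mM, 3 without library 3 at 1 mM or library 4 at 0.1 mM, 1 without library 1 at 1 mM or library 2 or 3 at 0.1 mM, and 0 without the other 2. A minimum of 10 reads in place of 20 gave 8. All 8 had been tested at 20 reads with the same reads, so only the set of sites fitted with them changed. At chromosome 11, position 21819918, the log2 odds change was -2.38 in both runs, with edgeR adjusted p of 0.272 and 0.000139. That site had a single high pool, described below. So did those at chromosome 5, position 14890555, chromosome 8, positions 3968749 and 56092585, and chromosome 18, position 37192948.

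At stretches, the 684 tested gave 0 calls with edgeR and 0 with limma, and at an unadjusted p under 0.05 they gave 40 (5.85%) and 31 (4.53%). Of edgeR's 40, 28 (4.09%) were higher and 12 (1.75%) lower at 1 mM. The 40 comprised 18 of the 93 tested stretches under 10%, 8 of the 194 intermediate ones and 14 of the 397 over 90%. The doses did not overlap at 17 stretches (2.49%), 10 (1.46%) higher and 7 (1.02%) lower. Among the 2256 sites the means differed by 10 points or more at 7 (0.310%), and by 5 points or more at 78 (3.46%). Among stretches 0 differed by 10 points and 6 (0.877%) by 5 points or more.

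The bounds of the limma intervals, not adjusted for the number of sites, show how large a difference each site could still hold. They do not show what difference the edgeR test could have called after adjustment. The 95% limma interval of the difference lay within 10 points on either side at 91.6% of tested sites and within 5 points at 72.8%. Among intermediate sites these shares were 69.9% and 20.1%. Over stretches, with reads summed, they were 88.7% and 51.0% at intermediate levels, and 100% within 5 points at stretches under 10%. Sites outside stretches enter only the site shares, so the gain from summing itself was not measured.

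**Figure D2:**
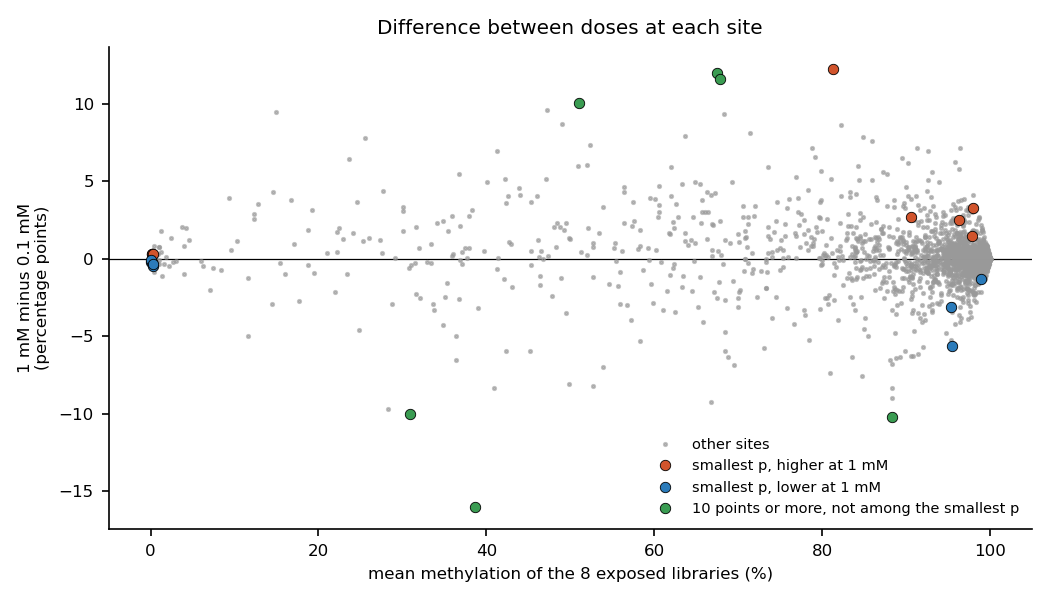
Difference in methylation between the doses in percentage points (vertical axis) against the mean level of the 8 exposed libraries in percent (horizontal axis), one point per analysed site. The 16 sites with the smallest p, 8 in each direction, and the other 6 sites that differ by 10 points or more are coloured; differences run from -16.0 to 12.3 points and are widest at intermediate levels.

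The 16 sites with the smallest p, 8 in each direction, are described next; none passed, with edgeR adjusted p from 0.272 to 0.575. They comprise 8 sites under 10%, 7 over 90% and 1 between, where the 2256 tested sites held 213, 1491 and 552. At 8 of the 16 the doses did not overlap, against 2.44% of all tested sites. The 16 were chosen by their p from these same levels, so a larger share without overlap was built in. The mean of the controls lay nearer to 0.1 mM at 8 and nearer to 1 mM at 8, and between the 2 dose means at 13. The sites were chosen by the difference between these means, without the controls. A control mean between them therefore follows largely from the choice and is no result about the controls.

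Among heavily methylated sites, the site at chromosome 10, position 137479, was at 97.9%, 96.6%, 97.7% and 96.5% in the 0.1 mM libraries and at 98.4%, 98.7%, 98.7% and 98.7% in the 1 mM libraries. All 4 of the higher dose lay above all 4 of the lower, by 1.44 points between the means (edgeR adjusted p = 0.272), and the controls ran from 97.7% to 99.1%, across both. At chromosome 23, position 19040376, the 0.1 mM libraries read 90.3%, 89.0%, 88.9% and 88.7% and the 1 mM libraries 91.8%, 91.5%, 91.0% and 93.3%, again without overlap. The difference of 2.71 points (edgeR adjusted p = 0.530) came with 2.72 points at the CCCGGG 224 bp away, and the controls ran from 88.0% to 92.1%. The site at chromosome 2, position 1251049, was at 96.6%, 94.8%, 96.3% and 97.4% at the lower dose and at 98.2%, 100%, 100% and 100% at the higher, with 92 to 136 reads per library. It did not overlap either (3.25 points, edgeR adjusted p = 0.530), but 1 control library was at 100% as well.

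At chromosome 7, position 73167573, the libraries at 0.1 mM were at 94.7%, 94.6%, 93.7% and 97.2% and those at 1 mM at 97.0%, 97.4%, 98.1% and 97.6%. Library 4 at 0.1 mM lay inside the range of the higher dose, so the groups overlapped despite a difference of 2.48 points (edgeR adjusted p = 0.272). The intermediate site at chromosome 25, position 5377025, had the widest positive difference, 12.3 points, with 66 to 117 reads per library. It read 72.7%, 73.3%, 71.0% and 83.5% at 0.1 mM and 72.4%, 91.2%, 96.6% and 89.4% at 1 mM, where library 1 lay with the lower dose (edgeR adjusted p = 0.530). The CCCGGG 413 bp away differed by -2.09 points.

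Of the heavily methylated sites that were lower at 1 mM, the one at chromosome 18, position 44776729, was at 99.3%, 99.7%, 99.7% and 99.7% at 0.1 mM and at 98.2%, 98.7%, 98.3% and 98.1% at 1 mM. The groups did not overlap and differed by -1.31 points (edgeR adjusted p = 0.272), while the controls spanned 98.5% to 99.4%. At chromosome 19, position 30343379, the libraries were at 99.4%, 96.5%, 99.4% and 97.9% at 0.1 mM and at 86.7%, 95.6%, 92.6% and 95.8% at 1 mM. This site, with 120 to 178 reads per library, differed by -5.64 points without overlap (edgeR adjusted p = 0.272), and by -3.65 points without library 1 at 1 mM. The controls, at 92.6% to 97.2%, reached into both groups. At chromosome 6, position 25987639, the values were 95.9%, 95.9%, 97.6% and 98.3% against 93.8%, 93.9%, 92.4% and 95.02%, also without overlap (-3.14 points, edgeR adjusted p = 0.530). Its neighbour 368 bp away differed by 2.04 points in the other direction.

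At 5 of the 8 unmethylated sites among the 16, 1 library was at 0.5% or more and the other 7 were at 0.2% or less. The site at chromosome 18, position 37192948, read 0.0691%, 0.142%, 0.0572% and 0.0752% at 0.1 mM and 0.0910%, 0.181%, 0.107% and 1.19% at 1 mM, with 2660 to 4339 reads per library. The difference of 0.306 points (edgeR adjusted p = 0.272) was 0.0404 without library 4 at 1 mM. The same library was the high one at chromosome 8, position 56092585, where the 0.1 mM libraries were at 0%, 0%, 0.0802% and 0.0951% and the 1 mM libraries at 0.128%, 0.0817%, 0% and 1.22%. There the difference of 0.313 points (edgeR adjusted p = 0.272) was 0.0262 without it. Both sites overlapped between the doses.

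In the other direction, library 2 at 0.1 mM stood alone at chromosome 11, position 21819918, with 1.81% against 0.149%, 0.198% and 0.0666% in the other libraries of its dose and 0.0764%, 0.116%, 0.114% and 0.0685% at 1 mM. The difference was -0.461 points (edgeR adjusted p = 0.272) and -0.0440 without that library. At chromosome 8, position 3968749, library 1 at 0.1 mM was at 0.928%, the other 3 at 0.0433%, 0.0804% and 0%, and the 1 mM libraries at 0%, 0.170%, 0% and 0.0397%. The difference was -0.210 points (edgeR adjusted p = 0.569), and 0.0112, so slightly higher at 1 mM, without that library. Library 3 at 0.1 mM was the high one at chromosome 5, position 25098015, where the values were 0.123%, 0.0736%, 0.509% and 0.116% against 0%, 0%, 0% and 0.0713%. The difference of -0.188 points (edgeR adjusted p = 0.530) was -0.0866 without that library. These doses did not overlap, but only by 0.0736% on 1358 reads in library 2 at 0.1 mM against 0.0713% on 1402 in library 4 at 1 mM. Library 2 at 1 mM, with no methylated read in 1419, allows up to 0.211%, so that gap lies within counting error.

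The other 3 unmethylated sites did not meet that description. At chromosome 8, position 2751348, the libraries were at 0.0813%, 0.0496%, 0.137% and 0.0455% at 0.1 mM and at 0.209%, 0.264%, 0.767% and 0.248% at 1 mM, so the doses did not overlap and every control, at 0% to 0.134%, lay below the higher dose. The difference of 0.294 points had the smallest p of all sites (edgeR adjusted p = 0.272) and was 0.162 without library 3 at 1 mM. At chromosome 21, position 2066571, the levels were 1.095%, 0%, 0.605% and 0.100% at 0.1 mM against 0%, 0.0998%, 0.0964% and 0.146% at 1 mM, with libraries 1 and 3 high at the lower dose. That difference was -0.364 points (edgeR adjusted p = 0.272), and -0.149 without library 1. At chromosome 14, position 34305254, no methylated read was seen in 9600 reads at 1 mM, which allows a level of up to 0.0313%. The 0.1 mM libraries there were at 0.106%, 0%, 0.0368% and 0.125%, and both groups include a library at 0% (edgeR adjusted p = 0.575).

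**Figure D3:**
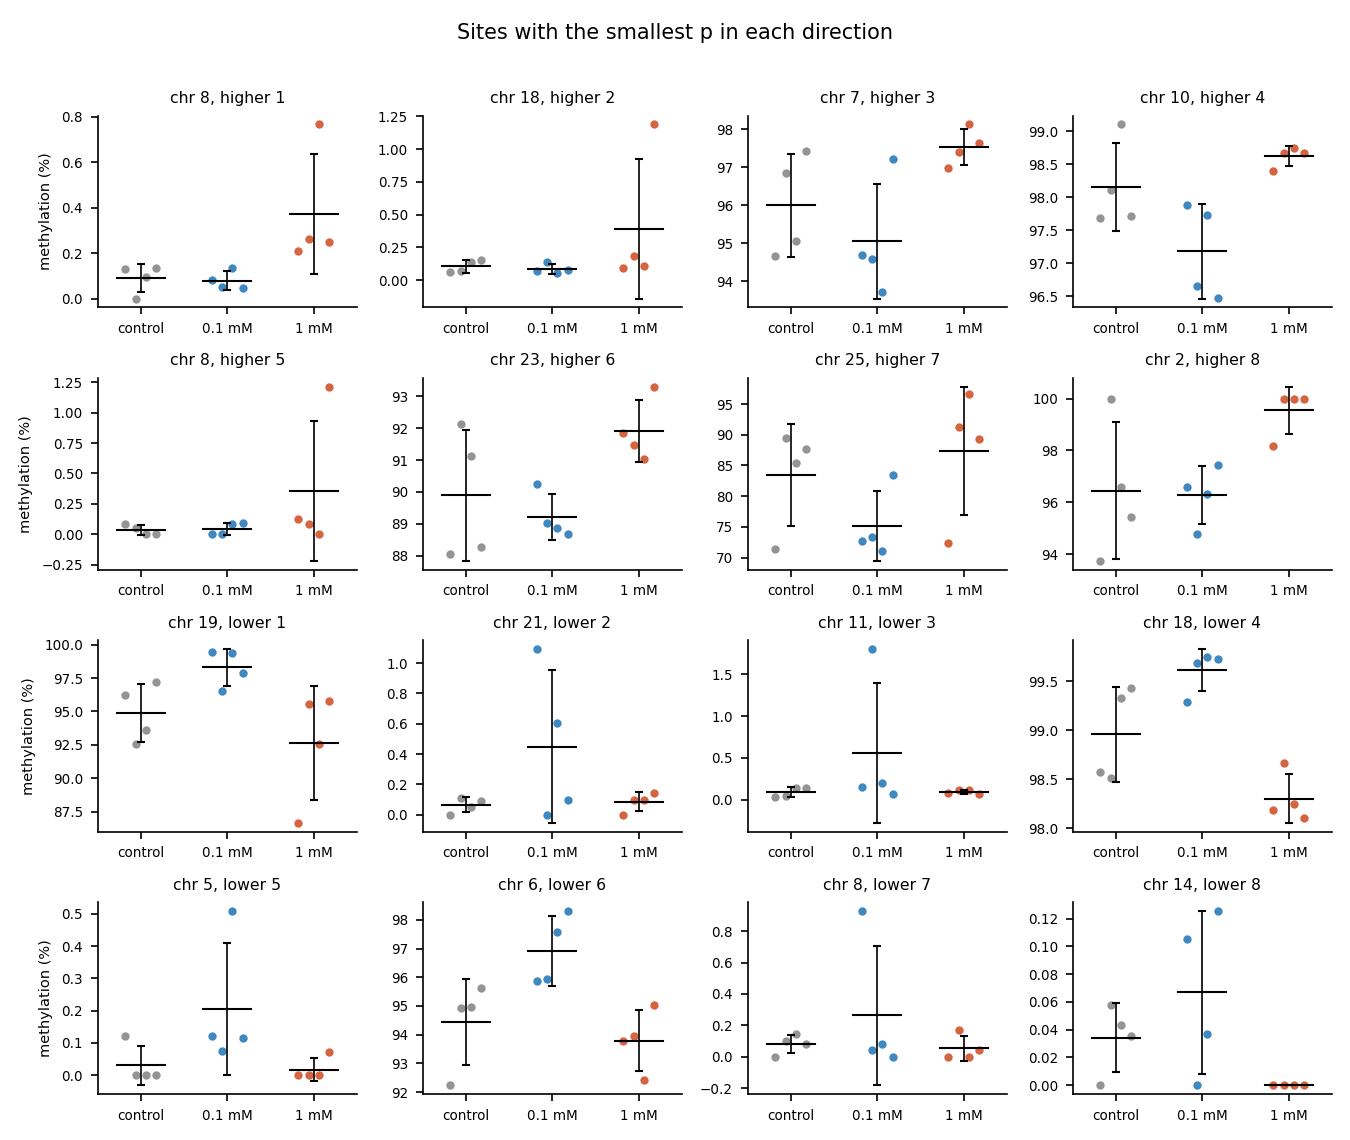
Methylation level in percent (vertical axes, each with its own scale and not from 0) of every library at the 16 sites with the smallest p, 8 higher and 8 lower at 1 mM, in the order of their p. Points are libraries of control, 0.1 mM and 1 mM, horizontal lines are means and bars are SD (n = 4); in the panels titled chr 18, higher 2 and chr 8, higher 5, library 4 at 1 mM is alone at 1.19% and 1.22%.

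Of the 16 sites, 12 had an analysed neighbour within 1000 bp, and some had a pair of them. The nearest one differed in the same direction at 5 sites and in the opposite one at 7, and 0 of the nearest had an unadjusted edgeR p under 0.05. Of all 16 such neighbours, 7 differed in the same direction and 9 in the opposite one, and 1 had an unadjusted edgeR p under 0.05. That neighbour, at chromosome 21, position 2066143, lies 428 bp from position 2066571 and differed by -0.215 points, in the same direction (edgeR adjusted p = 0.767). The nearest neighbour of position 2066571, 181 bp away, differed by 0.0708 points in the other direction.

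Single high pools at unmethylated sites occurred at both doses. Sites were sought where 1 of the 8 libraries was at 0.5% or more with at least 5 methylated reads and the other 7 at 0.2% or less, a rule chosen after values had been seen. There were 10 such sites, 5 with the high pool at 1 mM and 5 at 0.1 mM, and the high levels ran from 0.509 to 1.81%. Library 4 at 1 mM held 3 of them, library 3 at 1 mM and library 2 at 0.1 mM 2 each. In the highest, library 2 at 0.1 mM on chromosome 11, 50 of 2766 reads were methylated (95% Wilson interval 1.37 to 2.38%), and the nearest analysed site, 294 bp away, read 0.0549% in that library. The nearest analysed neighbour was at or under 0.219% in the same library at all of the 10 sites except that at chromosome 5, position 14890555, where library 3 at 1 mM read 1.00% and the neighbour 0.481%. No control library exceeded 0.247% at the 10 sites, but the rule searched only the 8 exposed libraries. Sites with a lone high control pool were not sought, so how often such pools occur without arsenite was not tested.

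The 7 sites that differed by 10 points or more all lay at intermediate levels, and at 0 of them were the doses free of overlap. The largest difference, at chromosome 24, position 42810329, rested on 34 to 53 reads per library. Its levels were 58.7%, 34.0%, 45.5% and 48.8% at 0.1 mM and 23.1%, 20.6%, 33.3% and 45.7% at 1 mM, a difference of -16.0 points (edgeR adjusted p = 0.886). The controls ran from 23.7 to 46.0% and overlapped with both groups, and 2 libraries at 0.1 mM lay above all of them. At chromosome 7, position 49624195, the libraries were at 35.6%, 39.7%, 38.2% and 30.0% against 24.6%, 19.3%, 32.8% and 26.8% (-10.0 points, edgeR adjusted p = 0.909), and overlapped through library 4 at 0.1 mM and library 3 at 1 mM. At chromosome 18, position 3461775, the values were 98.3%, 85.7%, 97.7% and 92.2% against 100%, 82.8%, 82.1% and 68.2% on 28 to 64 reads. The 1 mM libraries spanned the full range there, and the difference of -10.2 points (edgeR adjusted p = 0.680) was -15.8 without library 1 and -5.19 without library 4 at 1 mM.

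Higher at 1 mM by 12.0 points was the site at chromosome 19, position 44494275, with 65.2%, 56.7%, 69.4% and 54.5% against 74.4%, 72.4%, 82.4% and 64.7% on 23 to 39 reads (edgeR adjusted p = 0.914). The site at chromosome 22, position 37181647, was at 54.0%, 70.8%, 65.4% and 57.8% against 85.7%, 79.4%, 42.9% and 86.4% (edgeR adjusted p = 0.886). Its difference of 11.6 points was 21.8 without library 3, 7.55 without library 1 and 7.33 without library 4 at 1 mM. At chromosome 24, position 10607320, the levels were 37.1%, 48.7%, 44.7% and 53.6% against 48.5%, 60.3%, 53.6% and 61.9%, a difference of 10.0 points (edgeR adjusted p = 0.909), with the controls at 49.1 to 54.7%. These 3 overlapped between the doses, as did the site on chromosome 25 described above, the fourth that was higher at 1 mM.

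Differences over stretches were smaller than those at single sites. The 5 stretches with the smallest p in each direction had edgeR adjusted p from 0.721 to 0.725. They were chosen by their p, and 3 of the 10 did not overlap between the doses, against 2.49% of all tested stretches. The first of these 3, at chromosome 18, 48201046 to 48201054, joins a pair of sites 8 bp apart. It was at 98.9%, 99.2%, 98.8% and 98.4% at 0.1 mM and at 99.4%, 99.3%, 99.4% and 99.5% at 1 mM, a difference of 0.604 points (edgeR adjusted p = 0.721). At chromosome 24, 9641565 to 9642066, the values were 90.5%, 93.2%, 93.9% and 92.0% against 88.1%, 81.9%, 89.3% and 86.0%, with -6.09 points (edgeR adjusted p = 0.721). The controls were at 84.3 to 92.2%, across both groups. The last, at chromosome 18, 44776311 to 44776729, holds a site already described; its levels of 98.6%, 98.9%, 99.4% and 99.3% against 98.1%, 98.2%, 98.1% and 98.4% differed by -0.859 points (edgeR adjusted p = 0.721).

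The other 7 overlapped. The stretch with the smallest p, at chromosome 17, 24706747 to 24706987, was unmethylated at both doses, with 0.129%, 0.102%, 0.0693% and 0.0648% against 0.107%, 0.246%, 0.314% and 0.272% on 3661 to 4668 reads per library (0.144 points, edgeR adjusted p = 0.721). Here 3 libraries at 1 mM lay above all 4 at 0.1 mM, and library 1 did not. At chromosome 8, 43702310 to 43702575, the levels were 88.1%, 86.4%, 86.9% and 86.3% against 91.2%, 88.5%, 88.0% and 90.1% (2.50 points, edgeR adjusted p = 0.721). All 4 controls, at 88.4 to 93.0%, were above all 4 libraries at 0.1 mM. At chromosome 7, 73167208 to 73167573, which holds the site on that chromosome described above, the levels were 96.0%, 96.7%, 95.9% and 97.5% against 97.4%, 97.5%, 98.4% and 98.2% (1.38 points, edgeR adjusted p = 0.721).

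A few stretches had no methylated read at one dose. At chromosome 11, 45310404 to 45310520, there were 0 in 3267 reads at 0.1 mM, which allows up to 0.0918%, and the 1 mM libraries were at 0.142%, 0%, 0.775% and 0.198% (0.279 points, and 0.113 without library 3). At chromosome 8, 28596140 to 28596560, there were 0 in 5146 reads at 1 mM, which allows up to 0.0583%, against 0.0797%, 0.176%, 0.146% and 0% at 0.1 mM. Both sums add 2 sites, with medians of 429.5 and 435 reads per library on chromosome 11 and 654.5 and 667.5 on chromosome 8. Where a fragment spans both sites, its reads are not separate counts, and these limits are then too low. At chromosome 21, 2066143 to 2066752, the 3 sites together were at 0.548%, 0.0533%, 0.354% and 0.175% against 0%, 0.0993%, 0.120% and 0.123%. That difference of -0.197 points was -0.109 without library 1 at 0.1 mM. At chromosome 18, 47858034 to 47858485, with 67 to 136 reads, the levels were 99.3%, 97.2%, 100% and 99.2% against 96.4%, 94.1%, 93.5% and 100% (-2.92 points).

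The stretches with the most sites did not separate the doses. The 10 sites at chromosome 6, 25983513 to 25988007, summed to 92.9%, 93.0%, 93.4% and 93.0% at 0.1 mM and to 92.1%, 92.1%, 92.8% and 93.2% at 1 mM (-0.505 points, edgeR adjusted p = 0.872). The 9 sites at chromosome 4, 61296643 to 61299689, drew 25929 to 73010 reads per library. They were at 67.0%, 61.0%, 65.3% and 61.4% against 63.1%, 65.8%, 59.4% and 61.1% (-1.32 points, edgeR adjusted p = 0.963), and overlapped. Sums weight each site by its reads, which differ between libraries; taken singly, 6 of the 9 sites were lower and 3 higher at 1 mM. The 8 sites at chromosome 11, 21291561 to 21292763, were at 95.5%, 96.1%, 96.4% and 95.5% against 96.9%, 95.4%, 95.9% and 95.3%, a difference of -0.0200 points (edgeR adjusted p = 0.987). Leaving out single libraries moved the difference on chromosome 4 between -0.215 (without library 1 at 0.1 mM) and -2.46 points (without library 2 at 1 mM). On chromosome 11 it ran from -0.353 (without library 1 at 1 mM) to 0.166 points (without library 4 at 1 mM), across 0.

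**Figure D4:**
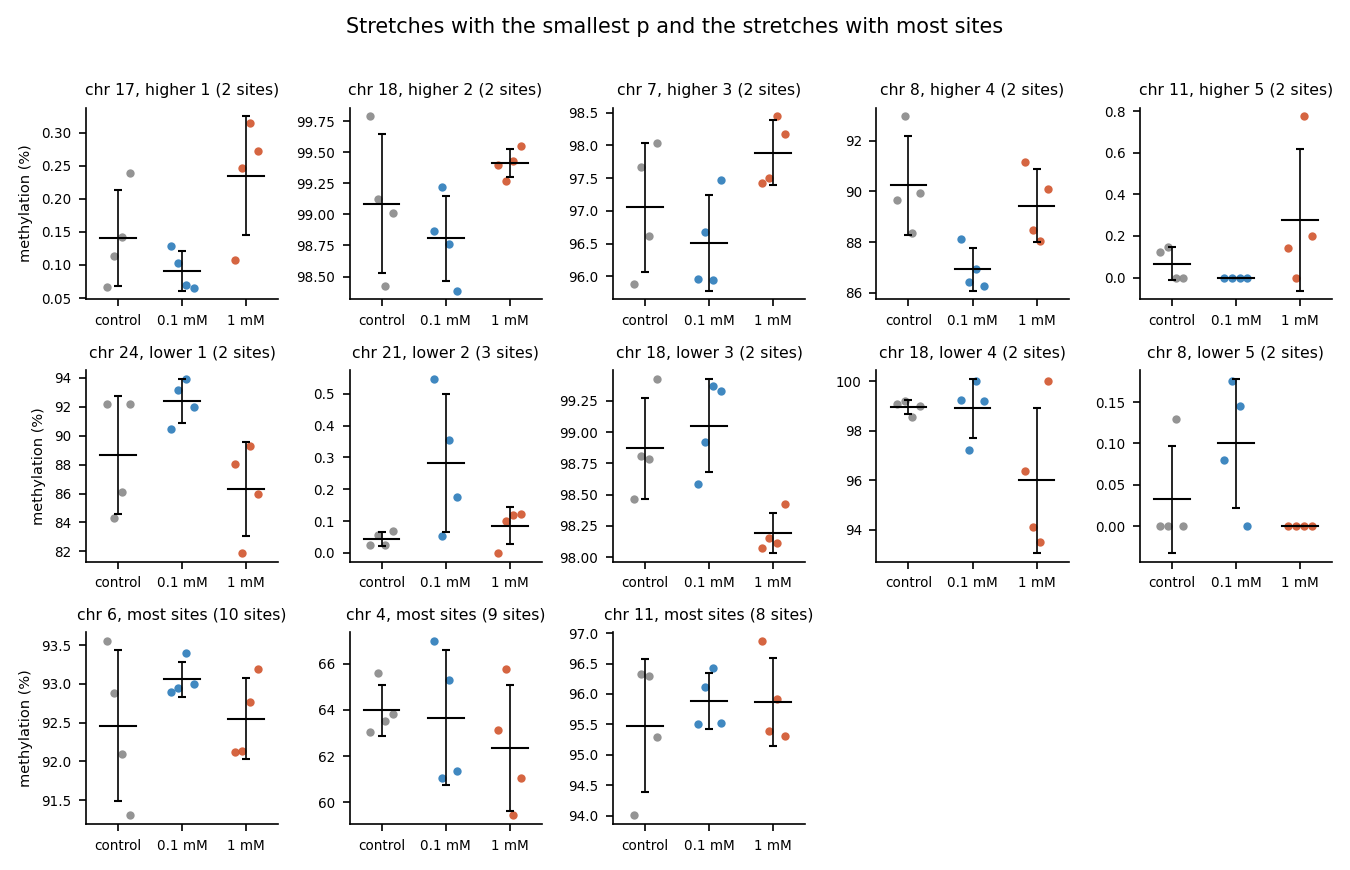
Methylation level in percent (vertical axes, each with its own scale and not from 0) of every library over the 10 stretches with the smallest p, 5 higher and 5 lower at 1 mM, and the 3 stretches with most sites, with the number of sites in brackets. Points are libraries of control, 0.1 mM and 1 mM, lines are means and bars are SD (n = 4); the stretch of 10 sites on chromosome 6 runs from 92.9 to 93.4% at 0.1 mM and from 92.1 to 93.2% at 1 mM.

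Neighbouring sites of intermediate level tended to differ in the same direction. Among 131 pairs of neighbours that both lay at 10 to 90%, 86 (65.6%) had the same sign, and Pearson's r of the differences was 0.347 (Spearman's rho 0.374). Over all 771 pairs 54.9% had the same sign and r was 0.195, and over the 377 pairs with both sites over 90% r was 0.0949. These are descriptions across sites: both ends of a pair come from the same libraries and, where a fragment spans them, from the same fragments.

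**Figure D5:**
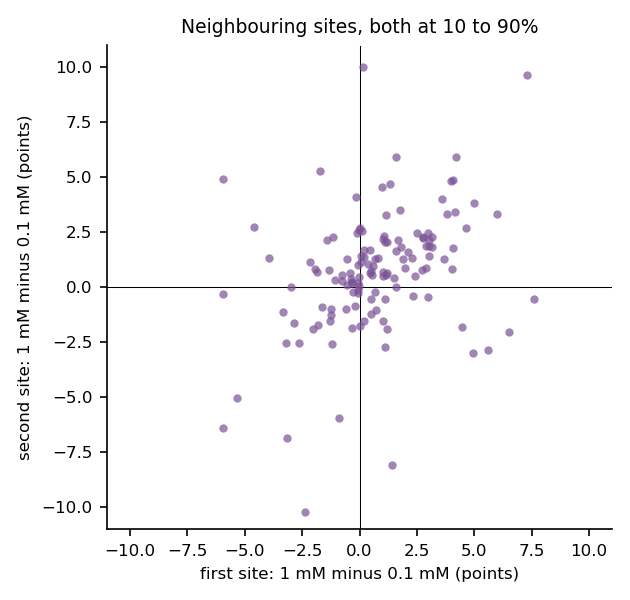
Difference between the doses in percentage points at one site (horizontal axis) and at its neighbour within 1000 bp (vertical axis), one point per pair, for the 131 pairs with both sites at 10 to 90%. Of these, 86 have the same sign on both axes, with r = 0.347.

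Libraries were not detectably nearer to those of their own dose than to those of the other. The mean absolute difference over all sites was 2.02 points between libraries of different doses and 2.01 within a dose, which differ by 0.0136 (exact permutation p = 0.371). Pools at 1 mM differed among themselves by 1.99 points and pools at 0.1 mM by 2.02, a difference in spread of -0.0350 (exact permutation p = 0.886). Library 4 at 0.1 mM, the one with the lowest median depth, had the largest mean distance to the other 7 libraries, 2.13 points.

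Some sites varied between pools of 1 dose beyond counting error. A chi-square test with Benjamini-Hochberg adjustment found 52 of 2206 sites (2.36%) at 0.1 mM, 39 of 2197 (1.78%) at 1 mM and 128 of 2191 (5.84%) in controls. At 13 sites this held at both doses, 25.0% of the first set and 33.3% of the second, 11 of them in controls too. Of the 13, 10 lay at intermediate levels, as did 23.5% of all analysed sites. At chromosome 11, position 4636388, with 545 to 848 reads per library, the levels were 56.0%, 47.8%, 58.6% and 69.2% at 0.1 mM and 59.0%, 47.8%, 55.6% and 72.4% at 1 mM. Both doses covered about the same range there, with means of 57.9% and 58.7%. At chromosome 13, position 51224149, they were 61.1%, 62.4%, 42.3% and 64.4% against 66.5%, 43.2%, 84.3% and 52.1%, and the 1 mM pools spanned the wider range. The site at chromosome 18, position 14570301, read 15.1%, 4.60%, 22.4% and 7.67% against 16.7%, 24.2%, 7.90% and 18.2%. Of the 13 sites, 5 were on chromosome 4, which held 133 of the 2345 analysed sites. Of these 5, 3 belong to the stretch of 9 sites above. Those 3 had 3616 to 32719 reads per library, against a median of 354 over all analysed sites. The chi-square test finds smaller spreads at higher depth, and whether chromosome 4 varied more than others was not tested. The site at chromosome 4, position 11070915, was at 1.41% in library 3 at 0.1 mM and at 1.32% in library 3 at 1 mM, and at or under 0.142% in every other library, controls included.

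By chromosome, the mean level was higher at 1 mM on 18 and lower on 7, and 0 of 25 passed limma with Benjamini-Hochberg adjustment, with 2 (8.00%) at an unadjusted p under 0.05. The limma intervals of all 25 were equally wide, so interval and p do not reflect the spread between pools of any single chromosome. Chromosome 15, over 98 sites, was at 83.1%, 82.8%, 83.9% and 83.4% at 0.1 mM and at 84.0%, 83.9%, 83.8% and 83.9% at 1 mM. The difference of 0.618 points (95% interval 0.101 to 1.14, limma adjusted p = 0.276) became 0.820 (limma adjusted p = 0.0395) without library 3 at 0.1 mM, the one library that lay inside the range of the higher dose. That library was the highest at 0.1 mM, so leaving it out widens the difference by construction. Among runs leaving out a single library, no other called a chromosome. Controls ran from 83.3 to 84.0%, into the ranges of both doses. Chromosome 21, over 87 sites, went from 79.3% ± 0.348 to 79.9% ± 0.267 (SD, n = 4 each, 0.605 points, limma adjusted p = 0.276). The doses overlapped there, with library 1 at 0.1 mM at 79.8% and the 1 mM libraries at 79.6 to 80.2%.

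Reads per site, which count the fragments recovered whatever their methylation, were tested as a second readout at 4128 sites. edgeR called 0 sites, with a smallest adjusted p of 0.0548 and 474 (11.5%) at an unadjusted p under 0.05, 330 (7.99%) higher and 144 (3.49%) lower at 1 mM. Without library 1 or without library 3 at 1 mM it called 1. DESeq2 on the same sites called 4 (0.0969%). The first was at chromosome 17, position 49408075, with 28, 25, 30 and 17 reads at 0.1 mM and 74, 76, 52 and 70 at 1 mM (edgeR log2 fold change 1.498, adjusted p = 0.0548; DESeq2 adjusted p = 0.000107). The doses did not overlap, but the controls, at 43, 26, 18 and 83 reads, covered both. The site 127 bp away, position 49408202, belongs to the same place and was the second. At chromosome 2, position 55200201, reads were 122, 84, 110 and 82 against 52, 65, 44 and 38 (DESeq2 adjusted p = 0.0174, edgeR 0.424), with controls at 51, 53, 72 and 41. The fourth, at chromosome 25, position 18256509, had 25, 45, 50 and 32 reads against 94, 95, 75 and 67 (DESeq2 adjusted p = 0.0460, edgeR 0.424), with controls at 85, 45, 30 and 97 across both doses. It was fully methylated at both doses. Whether the share of reads at isolated sites in libraries 2 and 3 at 1 mM had a part in these counts was not tested.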

How the data were processed

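Genomic DNA of 12 embryo pools was profiled by DREAM. Per the labels' protocols, 2.5 micrograms of DNA were spiked with 8 methylation standards and amplified with 12 PCR cycles. Coordinates are on danRer7 (submitters' processing notes), and no aligner is named in the labels. The deposited read columns have the unit expected counts, since a correction factor that is not whole stands among them; all site values were whole. The authors' deposited levels, in percent, were adjusted for enzyme efficiency with the standards and used only as an alternative. All columns of the table of the whole series matched a library, and 0 were without a sample.

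Levels here are unadjusted shares of reads, for sites reaching 20 reads in every one of the 8. Rows of standards and correction factors were dropped. Classes were set by the mean of the 8. Sites and stretches were tested with edgeR 4.0.16 (R 4.3.3; coverage term per library, dose on methylated reads, quasi-likelihood F test, Benjamini-Hochberg adjustment, threshold 0.05). The remaining 89 sites and 7 stretches had reads of 1 kind only. Intervals and the chromosome test came from limma 3.58.1 with a pseudocount of 1 on log2 odds for sites, reads per site also from DESeq2 1.42.0, and means from exact permutation tests in Python 3.11.15 (scipy 1.17.1). The tests were checked on simulated data. Named sites are the 8 with the smallest p in each direction, as fewer than 6 were called, and every site differing by 10 points or more; named stretches are the 5 with the smallest p in each direction and the 3 with most sites. Sites of the reads test outside edgeR's calls, the sites variable between pools and the single high pools were chosen after their values were seen. The members and lists were chosen with earlier results of these data known. Alternatives were other read minimums, gaps, tools, scalings, the replicate number as a block, all 12 libraries in the fit and leaving out libraries.

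Reads carry no molecular identifiers, so Wilson intervals, and limits for a count of 0, taken as 3 counts, describe counting error and nothing else. Replicates differed in reads per site beyond counting error in all 12 pairs within the doses (chi-square per degree of freedom at least 7.33), so none was counted as a duplicate.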

Additional observations from a re-analysis of the deposited data

Results flagged for a closer look

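In 82 groups of 4 libraries at the named sites, stretches and means, 10 had a library whose gap to its nearest neighbour passed Dixon's 95% critical value for 4 samples. The test is built to find 1 in 20 groups by chance, but these groups are mostly sites and stretches chosen for their small p, and some share sites, so that share does not apply to them. Where the other 3 libraries are tied at 0% or 100%, any other value in the remaining library passes. Of the 10, 0 were means.

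At 0.1 mM, library 2 stood apart at chromosome 11, position 21819918, with 1.81%, library 1 at chromosome 8, position 3968749, with 0.928% and library 3 at chromosome 5, position 25098015, with 0.509%. Each was above the other 3 libraries of its dose. Library 1 at 0.1 mM was below the other 3 at chromosome 18, position 44776729, with 99.3%.

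At 1 mM, library 4 was above the other 3 at chromosome 18, position 37192948, with 1.19%, at chromosome 8, position 56092585, with 1.22%, and at chromosome 5, position 25098015, with 0.0713%, where the others had no methylated read. Library 3 was above the others at chromosome 8, position 2751348, with 0.767%, and below them at chromosome 22, position 37181647, with 42.9%. Library 1 was below the others, all at 100%, at chromosome 2, position 1251049, with 98.2%.

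The spiked standard with the lowest level, which entered no test of the embryo sites, read 2.57% in library 1 and 1.78% in library 3 at 1 mM, above the 0.215 to 0.920% of the controls. Its part in the site levels was not tested. Without these 2 libraries the difference between the doses was 0.216 points over all sites, 0.0339 at sites under 10%, 0.656 at sites of 10 to 90%, 0.0874 at sites over 90% and 0.318 in stretches (exact permutation p from 0.267 to 0.467).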

How the results depend on the processing

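No stretch was called under any alternative run. Calls of single sites went from 0 to 8 with a minimum of 10 reads, to 3 without 1 mM libraries 1 and 3 and to 2 without 1 mM libraries 2 and 3 (both chosen after seeing the data), and to between 0 and 5 when single libraries were left out. Of the 22 named sites, 9 were called in at least 1 setting, most often that at chromosome 11, position 21819918, in 7 of 18, among them those without library 3 or 4 of either dose (edgeR or limma adjusted p 0.000139 to 0.938 over the alternatives). The replicate numbers share no source in the labels, and libraries with the same number deviated together with r of -0.0270, 0.0478, -0.0690 and 0.0689. With the replicate block 2 sites were called, at chromosome 8, position 56092585, and chromosome 11, position 21819918, both with a single high pool, and it changed no other call.

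Sites called in reads per site went from 0 to 4 with DESeq2 and to 15 with no filter, of which 5 had 1 library with more reads than the others together, and ranged from 0 to 1 when single libraries were left out. The count of chromosomes ranged from 0 to 1. The difference over all sites turned to -0.0489 points when weighted by reads. That over 90% turned to -0.0225 with the median and ranged from -0.0099 to 0.086 when single libraries were left out. Outside stretches it turned to 0.0622 weighted by reads, 0.0700 with adjusted levels, 0.0551 with the median and 0.0465 without 1 mM libraries 1 and 3, and ranged from -0.104 to 0.11. The difference in spread turned to 0.00774 with a minimum of 100 reads and ranged from -0.0805 to 0.0414, that in distance from -0.00639 to 0.0298. None of these differences passed, and without 1 mM libraries 1 and 3 none could. The causes were not tested.

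Of 384 values of named sites under alternatives, 1 reversed: at chromosome 8, position 3968749, the log2 odds change ranged from -4.01 to 0.227 when single libraries were left out, and it was positive without library 1 at 0.1 mM. Of 245 values of named stretches 7 reversed, all at chromosome 11, 21291561 to 21292763, where the log2 odds change was 0.00676 and 0.00530 with limma at pseudocounts of 1 and 0.5, 0.0429 without 1 mM libraries 2 and 3, and from -0.131 to 0.0432 when single libraries were left out. Stretches whose extent changes under a setting have no value there. The bounds of the intervals lay farthest out at intermediate sites.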
